A study of Mus musculus with 9 samples.

Results

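This comparison set bone marrow progenitors lacking E2A directly against progenitors lacking Lyl1. Its members were the arrays labelled E2A-/- and Lyl1-/-, 3 of each, or 6 of the 9 arrays of the series. The remaining 3 arrays came from WT control mice. They were left out of the contrast and are given beside it for reference. The cells were sorted by flow cytometry from mouse bone marrow as lacking lineage antigens and carrying CD117, SCA-1 and CD135, the surface form of Flt3. Their RNA was hybridized to Affymetrix 3' expression arrays, each from a sample called a biological replicate. The title of the series names Tal1 and its restraint of lymphoid specification as the subject. Strain, age, sex, the number of animals behind a sample and the part of each gene that was removed are not given in the sources used here. No agent or further allele is named for any of the 3 genotypes.

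E2A is the name for the basic helix-loop-helix proteins E12 and E47, both made from the gene Tcf3. These E proteins bind E boxes, short DNA motifs of the form CANNTG, as dimers, and B lymphocyte development depends on them. Lyl1 and its relative Tal1 are tissue-restricted helix-loop-helix proteins that bind DNA as partners of E proteins, together with LIM-only proteins and GATA factors. Cells of this surface phenotype include the lymphoid-primed multipotent progenitors, which express lymphoid genes at a low level before lineage commitment and can still give rise to granulocytes and monocytes.

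Differences were tested over 11624 genes with limma and are given as log2 of the E2A-/- level minus log2 of the Lyl1-/- level, so a positive value means higher in E2A-/-. At an adjusted p under 0.05, 11 genes differed, 8 higher and 3 lower in E2A-/-. This was 0.0946% of those tested. Without adjustment, 410 genes (3.53%) were higher and 542 (4.66%) lower at p under 0.05. The E2A-/- arrays all lay above the Lyl1-/- arrays for 670 genes (5.76%) and all below for 757 (6.51%). The median difference over all genes was -0.01. The genotypes thus differed in few genes that passed the test, and most lineage genes described here did not pass it.

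The promoters of 4 of these 11 genes are shown because the deleted proteins act through E boxes. Vpreb1 was lower in E2A-/- and Sema3d, Sdc1 and Stx3 were higher. Each stretch holds 250 bases before and 50 after the start site, from RefSeq on build GRCm38.p6, with every CANNTG on either strand in capitals. The stretches are chr16:16869206-16869505 on the minus strand for Vpreb1, chr5:12382916-12383215 on the plus strand for Sema3d, chr12:8771146-8771445 on the plus strand for Sdc1 and chr19:11819354-11819653 on the minus strand for Stx3.
Vpreb1: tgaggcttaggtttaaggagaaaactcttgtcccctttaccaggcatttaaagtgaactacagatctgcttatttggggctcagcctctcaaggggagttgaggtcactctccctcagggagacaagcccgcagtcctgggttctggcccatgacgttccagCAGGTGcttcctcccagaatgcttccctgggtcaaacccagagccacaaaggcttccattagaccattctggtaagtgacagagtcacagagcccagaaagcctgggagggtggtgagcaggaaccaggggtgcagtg
Sema3d: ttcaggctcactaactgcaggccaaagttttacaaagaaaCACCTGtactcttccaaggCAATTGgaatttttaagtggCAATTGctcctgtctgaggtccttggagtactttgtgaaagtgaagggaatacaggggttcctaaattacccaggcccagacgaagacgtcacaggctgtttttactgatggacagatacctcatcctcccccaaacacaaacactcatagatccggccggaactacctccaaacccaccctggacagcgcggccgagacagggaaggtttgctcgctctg
Sdc1: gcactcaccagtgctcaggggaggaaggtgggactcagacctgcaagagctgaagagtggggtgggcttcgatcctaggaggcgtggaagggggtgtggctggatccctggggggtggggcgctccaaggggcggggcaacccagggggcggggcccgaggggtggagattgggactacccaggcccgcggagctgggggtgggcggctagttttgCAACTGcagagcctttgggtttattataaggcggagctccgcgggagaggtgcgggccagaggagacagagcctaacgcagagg
Stx3: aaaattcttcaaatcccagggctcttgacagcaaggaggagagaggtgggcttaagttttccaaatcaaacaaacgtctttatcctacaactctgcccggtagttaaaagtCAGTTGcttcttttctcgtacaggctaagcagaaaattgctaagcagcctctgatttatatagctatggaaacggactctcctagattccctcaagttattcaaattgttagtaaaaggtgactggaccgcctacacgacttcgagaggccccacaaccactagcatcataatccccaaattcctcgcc
CANNTG is its own reverse complement, so each match counts for both strands. A promoter of this length was found for 9 of the 11 genes, and 8 of these 9 held a CANNTG. Among 9449 tested genes with a promoter entry, 63.3% held one. CAGGTG or its complement CACCTG, both a form of CANNTG, was in 3 of the 9 (Lyl1, Sema3d and Vpreb1) and in 17.7% of all. CAGCTG, another form of CANNTG, was in 1 of the 9, that of Tpm4, and in 14.7% of all. A match describes the letters of this window and is no evidence of binding.

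The arrays differed in ways that the genotype labels do not give. Between arrays of 1 knockout genotype, the robust SD of log2 differences over genes was 0.168 to 0.276. Between genotypes it was 0.183 to 0.283. E2A-/- 1 differed from Lyl1-/- 2 by 0.183 and from E2A-/- 2 and 3 by 0.233 and 0.276. WT 1 and WT 3 differed by only 0.0839 with 0 genes beyond 2-fold, far closer than any other pair of arrays. The ratio of 3' to 5' actin signal rises as RNA degrades or is labelled incompletely. It was 10.1 on E2A-/- 2 and 2.85 to 4.23 on the other 5 knockout arrays. Among WT arrays it was 10.6 on WT 2, 3.01 on WT 1 and 3.32 on WT 3. Xist, the non-coding RNA that silences an X chromosome in females, read 2362 on E2A-/- 2, 2011 on Lyl1-/- 1 and 2001 on Lyl1-/- 2, and 79.7 to 104 on the other 3, so 1 E2A-/- and 2 Lyl1-/- arrays carried it. Eif2s3y, a gene of the Y chromosome, read 96.3 on E2A-/- 2, 61.9 and 60.3 on Lyl1-/- 1 and 2 and 225 to 402 on the remaining knockout arrays. Kdm5d, another, read 81.6 on E2A-/- 2, 55.0 and 51.5 on Lyl1-/- 1 and 2 and 86.2 to 117 on the rest. On E2A-/- 2 these genes were thus above Lyl1-/- 1 and 2, and the sex covariate used below rests on Xist alone. Mature granulocyte transcripts were abundant on E2A-/- 2 and 3 but not on E2A-/- 1, as set out further on. The sort markers could be checked in part: Kit, which encodes CD117, read 314 to 493 and Flt3 672 to 1217 on the knockout arrays, far above array medians of 77.9 to 79.3. The SCA-1 gene Ly6a had no probe set of its own. Of the excluded lineage antigens, Cd3e, Cd4 and Cd8a read at most 112 on any knockout array. Ptprc, at 1179 to 1517, is no check, because all blood cells carry CD45 and only its B220 form marks B cells.

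The targeted genes came first. Lyl1 read 1222, 825 and 900 on E2A-/- arrays 1, 2 and 3 and 89.6, 79.2 and 92.0 on Lyl1-/- arrays 1, 2 and 3, against 1352 to 1443 in WT. No Lyl1-/- array came near any other, and the difference was 3.48 (SE 0.157, limma adjusted p = 0.0002158). The Lyl1 signal of all 6 arrays thus fitted their labels. Tcf3, the gene for E2A, read 172, 193 and 121 in E2A-/- and 198, 192 and 208 in Lyl1-/-, with a difference of -0.33 (SE 0.170, adjusted p = 0.681). Its 3 probe sets all had small negative differences between -0.33 and -0.17. Signal from the E2A-/- arrays does not check their label, because a probe set outside the removed part would still bind the transcript.

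Gm4047, a predicted gene, had a difference as large as that of Lyl1 itself. It read 823, 745 and 873 in E2A-/-, 63.1, 64.4 and 87.8 in Lyl1-/- and 94.3 to 135 in WT. The difference was 3.52 (SE 0.147, adjusted p = 0.0002158), and its other probe set differed by 1.56 in the same direction. On Lyl1-/- 1 and 2 it was below the array median, so the size of the difference depends on background. The promoter windows of Gm4047 and Sema3d begin at bases 11232900 and 12382916 of chromosome 5. Sema3d, a secreted semaphorin that guides migrating cells, is the next gene in RefSeq order among genes with a probe set of their own. It read 145, 177 and 156 in E2A-/- and 69.4, 69.0 and 71.7 in Lyl1-/-, a difference of 1.18 (SE 0.103, adjusted p = 0.01438). All 3 Lyl1-/- values were below the array median, and the gene entered the test through its E2A-/- values alone, so the size of this difference also depends on background. The tested genes nearest to this pair on either side, Dmtf1 and Hgf, lie 4 and 10 such genes from Sema3d. They differed by 0.05 and 0.01. Abcb1b, 8 such genes from Sema3d, differed by 0.47 (SE 0.174, adjusted p = 0.544) with overlapping groups. Dmtf1, Hgf and Abcb1b were named after their values were seen.

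Sdc1 encodes syndecan-1 (CD138), a heparan sulphate proteoglycan best known from plasma cells. It read 400, 407 and 412 in E2A-/-, 113, 93.1 and 156 in Lyl1-/- and 194 to 247 in WT, a difference of 1.78 (SE 0.178, adjusted p = 0.02041). Of its 3 other probe sets, 2 differed in the same direction by 0.83 and 0.59, and a dim one by -0.01. Other plasma cell genes did not accompany it: Jchain and Prdm1 stayed below the filter, and Xbp1, a secretory regulator, differed by -0.32 (adjusted p = 0.694). Stx3, a syntaxin of membrane fusion, read 505, 466 and 398 in E2A-/- and 166, 171 and 135 in Lyl1-/-, with WT at 238 to 245. The difference was 1.54 (SE 0.135, adjusted p = 0.01438), while 3 dim probe sets of the gene differed by -0.06 to 0.30. Both genes were high on each of the 3 E2A-/- arrays.

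Tpm4, a tropomyosin of the actin cytoskeleton, read 431, 320 and 338 in E2A-/- and 128, 159 and 147 in Lyl1-/-, a difference of 1.32 (SE 0.143, adjusted p = 0.02682). It lies on chromosome 8, 83 genes from Lyl1 in RefSeq order, counting only genes with a probe set of their own. Auts2, which acts with a Polycomb complex, read 186, 206 and 205 against 82.8, 88.8 and 98.5, a difference of 1.14 (SE 0.104, adjusted p = 0.01438). Here WT, at 86.6 to 110, overlapped with Lyl1-/-. Its other 4 probe sets, most of them close to background, differed by 0.02 to 0.37. Anxa1, the annexin abundant in neutrophils and monocytes, read 1387, 1381 and 1488 in E2A-/- and 718, 718 and 633 in Lyl1-/-, a difference of 1.04 (SE 0.097, adjusted p = 0.01438). With the mean log2 level of the mature granulocyte list as a covariate the difference was 1.00 and did not pass (adjusted p = 0.139). Anxa1 is itself on that list, so the fit adjusts it partly for its own value. The part of granulocytes in its difference was not tested.

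Lower in E2A-/- were Hoxb5os, Pde2a and Vpreb1. Hoxb5os, a non-coding transcript opposite to Hoxb5 in the Hoxb cluster, read 147, 145 and 165 in E2A-/- and 299.8, 357 and 389 in Lyl1-/-, a difference of -1.19 (SE 0.123, adjusted p = 0.02343). Hoxb5 itself, a stem cell gene, was below the filter. Pde2a, a phosphodiesterase stimulated by cyclic GMP, read 415, 511 and 453 against 914, 980 and 871, a difference of -1.01 (SE 0.110, adjusted p = 0.02682). Another of its probe sets differed by -0.62, and the remaining one by -0.13. Vpreb1, a component of the surrogate light chain of the pre-B cell receptor, read 81.6, 78.0 and 82.8 in E2A-/- and 141, 129 and 140 in Lyl1-/-. Its difference was the smallest that passed, at -0.76 (SE 0.0895, adjusted p = 0.04139). The E2A-/- values lay at the array median, close to background, which limits how large a difference could be measured.

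WT lay between the knockouts for most of these genes. For 9 of the 11, every WT array fell between the 2 groups of knockout arrays, with Lyl1 and Auts2 as the exceptions. Anxa1, for example, read 941 to 1099 in WT, below every E2A-/- array and above every Lyl1-/- array. Pde2a read 525 to 602 and Hoxb5os 193 to 253. Among the 1427 tested genes whose knockout groups did not overlap, this held for 48 (3.36%). The genes were picked by their distance between the knockouts, so these shares are descriptions without a test.

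**Figure D1:**
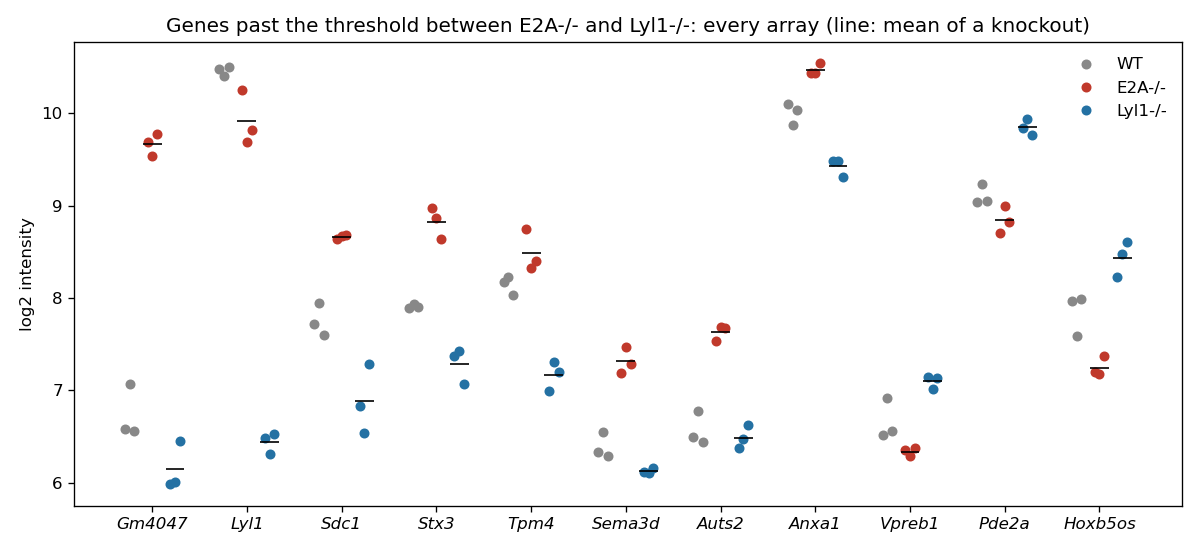
Log2 intensity of the 11 genes that differed between E2A-/- and Lyl1-/- at an adjusted p under 0.05. Each point is 1 array, grey for WT, red for E2A-/- and blue for Lyl1-/-, and lines mark the mean of a knockout group. The knockout groups do not overlap for any of the 11, and WT lies between them for 9.

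The count of 11, and which genes it held, changed when single arrays were left out. It fell to 3 without E2A-/- 2 and to 3 without E2A-/- 3, and to 2 without Lyl1-/- 1 and 2 without Lyl1-/- 2. It was 16 without E2A-/- 1 and 11 without Lyl1-/- 3, with Hoxb5os, Pde2a and Vpreb1 past the threshold in neither. Tpm4 was lost without Lyl1-/- 3, and Sdc1 without E2A-/- 1. Lyl1 and Gm4047 passed in each of these 6 fits. With sex from Xist as a covariate, 3 genes passed (Gm4047, Lyl1 and Stx3), and the other 8 had adjusted p values from 0.05855 for Sema3d to 0.123 for Vpreb1. With the mean log2 level of the mature granulocyte list as a covariate 3 passed, among them Gm4047 and Lyl1. All 11 kept their direction in each setting tried.

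The gene lists turned next to E proteins and their partners. Of 17 listed genes 15 were tested, 7 with positive and 8 with negative differences and a median of -0.04. Apart from Lyl1, none passed the test. Tcf4, the gene for the E protein E2-2, read 895, 742 and 586 in E2A-/- and 461, 502 and 566 in Lyl1-/-, a difference of 0.52 (SE 0.165, adjusted p = 0.503). The groups did not overlap, though E2A-/- 3 and Lyl1-/- 3 nearly met. Tcf12, the gene for HEB, differed by 0.24 (SE 0.147). Tal1 read 388, 415 and 460 in E2A-/- and 407, 407 and 331 in Lyl1-/-, so the paralogue of Lyl1 and subject of the series title had overlapping levels (0.14, SE 0.121, adjusted p = 0.848). The partners of the Tal1 complex had differences of 0.08 for Lmo2, 0.11 for Gata2, -0.09 for Ldb1 and -0.21 for the co-repressor Cbfa2t3. Runx1, a regulator of blood stem cells, differed by -0.31 and Id2, an inhibitor of E proteins, by -0.44 (SE 0.316), the latter through 1 high array, Lyl1-/- 3 at 181. Id1 and Id3 were below the filter. Id1 read 91.4, 92.7 and 73.4 on Lyl1-/- 1, 2 and 3 and 71.2 to 74.0 in E2A-/-.

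Lymphoid priming genes showed a split rather than a shift. Of 24 listed genes 18 were tested, 11 with positive and 7 with negative differences, and the median was 0.02. None passed. An unadjusted p under 0.05 was reached by 2, both lower in E2A-/-, which is 11.1% of the 18 against 4.66% of all tested genes. Dntt, the terminal transferase that adds bases at antigen receptor joints, read 1826, 1857 and 1973 in E2A-/- and 2851, 2939 and 4362 in Lyl1-/-. All E2A-/- arrays were lower, and the difference was -0.82 (SE 0.167, adjusted p = 0.319). WT read 3795 to 4171, above every E2A-/- array and above 2 of 3 Lyl1-/- arrays. Il12a, a cytokine subunit, read 107, 102 and 108 against 129, 118 and 132 (-0.25, SE 0.0923, adjusted p = 0.544).

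Other members of the list had overlapping groups. Flt3 read 1141, 1217 and 863 in E2A-/- and 672, 742 and 1136 in Lyl1-/-, a difference of 0.36 (SE 0.218, adjusted p = 0.740). Lyl1-/- 3 alone carried the high values of its genotype here. Il7r, the interleukin-7 receptor chain needed by lymphoid precursors, read 73.6, 75.8 and 80.3 against 75.5, 86.9 and 113. That is close to the array median in both. Ikzf1 (Ikaros) differed by 0.17, Mef2c by 0.39, Ets1 by -0.33, Satb1 by 0.15, Notch1 by -0.04 and Bcl11a by 0.01, with SEs of 0.149 to 0.190. Rag1, Rag2, Ccr9, Ly6d and Lax1 were below the filter on these arrays. Of these, Ccr9 read 150 and Ly6d 94.6 on Lyl1-/- 3, their highest knockout values. The median of the list turned to -0.04 without Lyl1-/- 1 and -0.02 without Lyl1-/- 2, and reached 0.17 without Lyl1-/- 3.

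B lineage genes were measured thinly. Of 16 listed genes 7 were tested, 6 of them with negative differences, and the median was -0.18 against -0.01 over all genes. Vpreb1 was the only one that passed. Cd79b, a signalling chain of the B cell receptor, read 226, 155 and 183 in E2A-/- and 319, 230 and 261 in Lyl1-/- without overlap (-0.53, SE 0.172, adjusted p = 0.503). Blnk, an adaptor of that receptor, read 79.2, 62.0 and 73.2 against 81.7, 81.0 and 96.6 (-0.28, adjusted p = 0.634). Igll1, the other surrogate light chain gene, had overlapping values of 82.7 to 101 and 86.9 to 138 and differed by -0.18. Ighm, the mu heavy chain, differed by -0.08 and Vpreb3 by -0.04. Cd24a, a surface glycoprotein of early B and many other cells, was the exception, at 2979, 2994 and 3681 against 2270, 2444 and 2705 (0.38, SE 0.122, adjusted p = 0.503). Ebf1, Pax5 and Cd79a, which mark committed B cells, were below the filter, with Ebf1 at 58.6 to 66.3 on the 6 arrays. The median was 0.02 without Lyl1-/- 3 and between -0.31 and -0.18 without any other array.

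T cell, Gimap and Notch genes showed no common direction. The T and innate lymphoid list had 6 of 16 genes tested, with 3 differences each way and a median of 0.00. The Gimap GTPases, lymphoid survival genes, had 7 of 8 tested and a median of 0.02. Gimap1 read 188, 191 and 141 against 146, 139 and 167, a difference of 0.19 (SE 0.144). Gimap8 read 177, 120 and 130 against 99.4, 104 and 269.7, again with the highest value on Lyl1-/- 3. Of 10 tested Notch pathway genes, 4 had positive and 6 negative differences. Dtx4, a Deltex ubiquitin ligase, read 126, 112 and 99.3 in E2A-/- and 154, 148 and 143 in Lyl1-/- (-0.41, SE 0.111, adjusted p = 0.455). None of the 3 lists held a gene that passed.

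**Figure D2:**
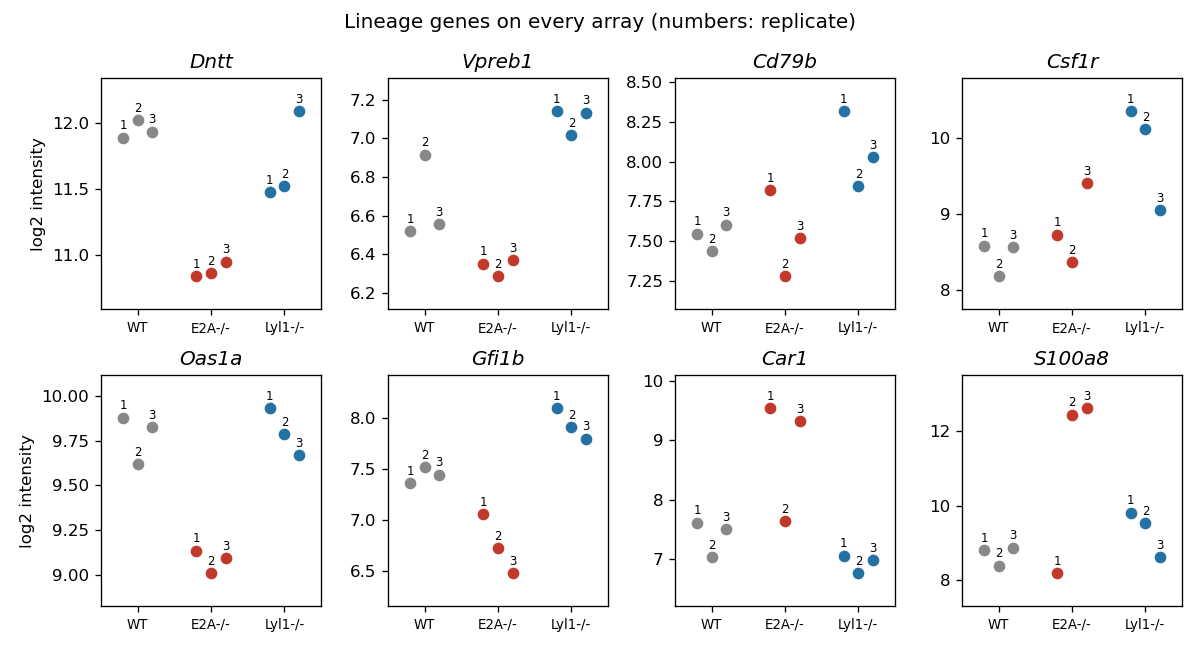
Log2 intensity of 8 lineage genes on every array, with the replicate number beside each point; each panel has its own axis. Dntt, Vpreb1, Oas1a and Gfi1b are lower on each E2A-/- array than on any Lyl1-/- array, Car1 is higher, and S100a8 is high on E2A-/- 2 and 3 only.

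Progenitor genes of granulocytes and monocytes had differences of both signs. Of 26 listed genes 25 were tested, 15 with positive and 10 with negative differences, a median of 0.06 and none that passed. Of the 25, 4 (16.0%) were higher on each E2A-/- array than on any Lyl1-/- array, against 5.76% of all tested genes. Mgst1, a microsomal glutathione transferase, read 355, 473 and 348 in E2A-/- and 237, 160 and 156 in Lyl1-/- (1.10, SE 0.194, adjusted p = 0.239). Gfi1, a repressor needed for neutrophil development, read 302, 365 and 227 against 162, 164 and 226 (0.69, SE 0.201, adjusted p = 0.475). E2A-/- 3 and Lyl1-/- 3 all but touched for this gene. Nkg7, a granule protein, differed by 0.51 (SE 0.155) and Fcgr3, an Fc receptor, by 0.40 (SE 0.154).

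Spi1 and Csf1r were the 2 members of this list with negative differences and an unadjusted p under 0.05. Spi1, the gene for PU.1, read 321, 192 and 203 in E2A-/- and 489, 351 and 309 in Lyl1-/- (-0.70, SE 0.238, adjusted p = 0.512). Csf1r, the receptor for macrophage colony-stimulating factor, read 425, 330 and 681 against 1310, 1117 and 532 (-1.01, SE 0.376, adjusted p = 0.548). Lyl1-/- 3 lay among the E2A-/- arrays, so the difference rested on Lyl1-/- 1 and 2. WT read 290 to 384. Irf8, a regulator of monocyte and dendritic cell fate that was named after its values were seen, read 616, 414 and 537 against 445, 465 and 580 (0.06, SE 0.171). Cebpa, Prtn3, Mpo and Elane, named after their values were seen, had the same division within Lyl1-/-. Elane, for neutrophil elastase, read 408, 342 and 768 in E2A-/- and 523, 635 and 143 in Lyl1-/-. Mpo, for myeloperoxidase, read 5131, 3706 and 4487 against 5858, 5093 and 2609. The spread among Lyl1-/- arrays exceeded the genotype difference for both. The median of the list was between -0.05 and 0.17 when single arrays were left out, negative without E2A-/- 1, E2A-/- 3 or Lyl1-/- 3.

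Mature granulocyte and monocyte genes, which a lineage-depleted sort should largely remove, divided the E2A-/- arrays. Of 20 listed genes 15 were tested, 12 with positive differences, and the median was 1.04. Only Anxa1 passed and only Anxa1 had groups that did not overlap. S100a8, a neutrophil calcium-binding protein, read 291, 5524 and 6214 in E2A-/- and 894, 736 and 391 in Lyl1-/-, and Ngp, a neutrophil granule protein, read 149, 3991 and 3436 against 468, 281 and 152. Both were named after their values were seen. Camp, the cathelicidin gene, read 127, 1798 and 1982 against 225, 206 and 83.1, a difference of 2.29 with an SE of 1.00 (adjusted p = 0.620). E2A-/- 1 was thus lower than most Lyl1-/- arrays for each. The summed level of the 15 genes ranged from 3738 to 22543 in E2A-/- and from 3238 to 5045 in Lyl1-/-. Mmp8, Cd177 and Itgam, further markers of mature cells, were below the filter, which needs 3 arrays above the median. Cd177 still had the same division, at 62.9, 139 and 133 in E2A-/- and 59.6 to 65.5 in Lyl1-/-. Mmp8 read 112 on E2A-/- 2 and 69.4 to 73.9 on the other knockout arrays. Without E2A-/- 1, Camp, Ltf, Lcn2 and Chil3 passed at limma adjusted p values of 0.0144 to 0.0438. That array was the low one for these same genes, so their passing without it was all but fixed in advance. With E2A-/- 1 as the only E2A-/- array the median of the list was -0.30. In bulk RNA, fewer cells of a type and less RNA per cell cannot be told apart. The part of these transcripts in other differences was not tested beyond the fit with their level as a covariate.

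No macrophage or dendritic cell marker passed the test. The macrophage list had 6 of 12 genes tested and a median of 0.05, with C1qa, C1qb and C1qc below the filter. Cd68, a lysosomal protein of macrophages, read 235, 140 and 214 against 278, 255 and 123. Slc40a1, the iron exporter ferroportin, also made by erythroid cells, read 106, 113 and 146 in E2A-/- and 71.7, 76.4 and 99.6 in Lyl1-/- (0.56, SE 0.170, adjusted p = 0.481). The dendritic list had 6 of 12 tested and a median of 0.00. The 8 tested genes of MHC class II had a median of 0.05 that turned to -0.19 without Lyl1-/- 1 and to 0.29 without Lyl1-/- 3. H2-Aa, a class II chain, read 643, 808 and 1630 against 502, 489 and 2341, so that replicate 3 of each genotype was its highest. Mast cell, stromal and endothelial lists had 3 of 9 and 1 of 9 genes tested, none of which passed.

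Stem cell genes were split evenly. Of 27 listed genes 18 were tested, 9 in each direction, with a median of 0.03. None passed. Robo4, a receptor on stem cells and endothelium, read 74.6, 72.9 and 84.5 in E2A-/- and 101, 106 and 110 in Lyl1-/-, a difference of -0.45 (SE 0.0991, adjusted p = 0.380). Fgd5, a marker of long-term stem cells, differed by -0.51 (SE 0.184), Pdzk1ip1 by -0.53 (SE 0.178) and the receptor tyrosine kinase gene Tie1 by -0.40 (SE 0.146). Meis1, a homeobox partner of Hox proteins, had the opposite sign, at 867, 748 and 611 against 561, 576 and 522 (0.41, SE 0.138, adjusted p = 0.505). Among 6 tested imprinted growth genes, Igf2r read 133, 166 and 112 against 78.2, 73.6 and 102 (0.69, SE 0.179, adjusted p = 0.448). Meg3, a maternally expressed non-coding RNA, read 101, 100.2 and 111 against 195, 137 and 119 (-0.50, SE 0.178, adjusted p = 0.527).

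Megakaryocyte and erythroid priming genes held some of the largest differences outside the called genes. Of 23 listed genes 21 were tested, 13 with positive and 8 with negative differences, a median of 0.11 and none that passed. Gfi1b, a repressor needed for both lineages, read 133, 106 and 89.2 in E2A-/- and 273, 240 and 222 in Lyl1-/-. WT read 164 to 183, between the groups, and the difference was -1.18 (SE 0.160, adjusted p = 0.0866). It passed in 6 other settings, among them all 9 arrays in 1 fit (adjusted p = 0.0122), the same fit with WT 1 and WT 3 averaged (adjusted p = 0.0376) and the fit without E2A-/- 1 (adjusted p = 0.0349). F2r, the thrombin receptor, read 659, 814 and 563 against 309, 399 and 344 (0.94, SE 0.159, adjusted p = 0.216). Gp9, a platelet glycoprotein, read 124, 111 and 112 against 143, 140 and 154 (-0.33, SE 0.0947, adjusted p = 0.466). Of these genes, then, Gfi1b and Gp9 were lower and F2r higher in E2A-/-.

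Red cell genes of the priming list went both ways, with more of them higher in E2A-/-. Car1, carbonic anhydrase 1, read 741, 199 and 638 in E2A-/- and 133, 109 and 126 in Lyl1-/- (1.89, SE 0.448, adjusted p = 0.427). E2A-/- 2, the knockout array with the highest actin ratio, held the lowest E2A-/- value, and without it Car1 passed (adjusted p = 0.00203). Leaving out the low array of the group favours such a result, so it is no separate support. Klf1, the erythroid Krüppel-like factor, read 257, 147 and 275 against 154, 94.0 and 113 (0.89, SE 0.271, adjusted p = 0.481). Its gene lies 8 genes from Lyl1, counting only genes with a probe set of their own. Aqp1, a water channel, differed by 0.50 (SE 0.151). Gata1 read 148, 126 and 193 against 125, 97.0 and 115 without overlap (0.46, SE 0.173, adjusted p = 0.551). Icam4, Slc14a1, Car2 and Epor differed by 0.27, 0.26, 0.18 and 0.10 with overlapping groups. Gata1 and these genes were named after their values were seen. Of the opposite sign were the transferrin receptor gene Tfrc at -0.41 (SE 0.224), Nfe2, an activator of globin and platelet genes, at -0.31 (SE 0.153) and Zfpm1, the GATA1 partner FOG-1, at -0.27 (SE 0.105), 3 genes named after their values were seen. Among mature erythroid genes, 5 of 14 were tested, all with positive differences and a median of 0.58, and 4 of the 5 had all E2A-/- arrays above all Lyl1-/- arrays, as did 5.76% of all tested genes. Slc4a1, the band 3 anion exchanger, read 140, 299.9 and 736 against 97.8, 85.7 and 95.3 (1.76, SE 0.511, adjusted p = 0.475). Bpgm, an enzyme of red cell glycolysis, read 320, 278 and 337 against 215, 212 and 198 (0.58, SE 0.106, adjusted p = 0.266). The summed level was 833 to 1723 in E2A-/- and 525 to 576 in Lyl1-/-, and Hba-a1, an alpha globin gene, was below the filter on these arrays. The median of the 5 was positive in all 24 other settings, from 0.50 to 0.77, but none of the 5 passed. The part of red cell precursors in these values was not tested.

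**Figure D3:**
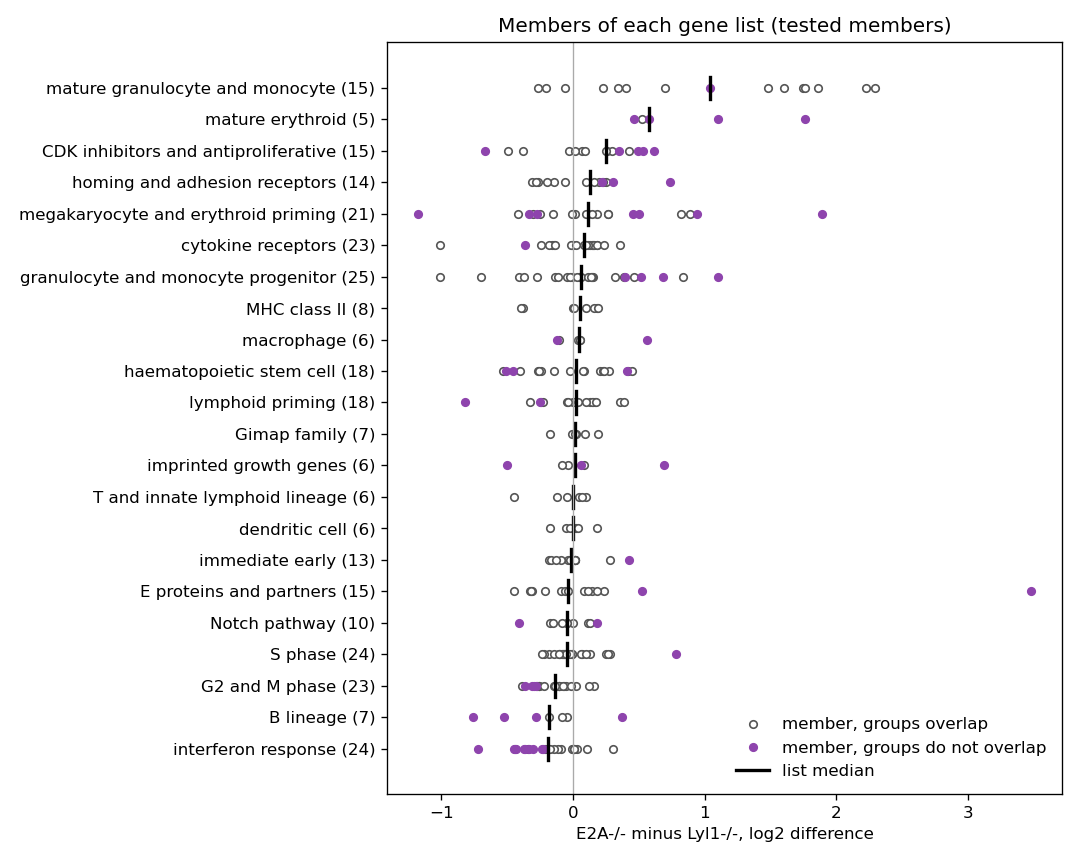
Log2 difference, E2A-/- minus Lyl1-/-, of every tested member of 22 gene lists, with the number tested in parentheses and lists ordered by their median (black bar). Filled points are genes whose 3 E2A-/- and 3 Lyl1-/- arrays do not overlap. Granulocyte and erythroid lists lie highest and the interferon and B lineage lists lowest, with medians of 1.04, 0.58, -0.19 and -0.18.

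No receptor gene of the cytokine or homing lists passed the test. Of 25 cytokine receptors 23 were tested, 13 with positive and 10 with negative differences and a median of 0.08. Besides Csf1r, only Il21r had an unadjusted p under 0.05, at 119, 102 and 109 against 128, 151 and 148 (-0.37, SE 0.110, adjusted p = 0.481). Homing and adhesion receptors had 14 of 20 tested and a median of 0.13. Itgb2, the shared beta chain of leukocyte integrins, read 172, 275 and 222 in E2A-/- and 128, 120 and 147 in Lyl1-/- (0.74, SE 0.177, adjusted p = 0.427). It lies 83 genes from Tcf3, counting only genes with a probe set of their own. Its highest values were on E2A-/- 2 and 3, the arrays with the highest granulocyte sums. The part of either was not tested. Cd44, the hyaluronan receptor, read 1541, 1166 and 1343 against 1011, 1101 and 1153 (0.30, SE 0.125). Cxcr4, the receptor for the niche chemokine Cxcl12, differed by -0.31 (SE 0.183) with overlapping groups.

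Cell cycle genes gave small differences that ran in opposite directions. Of 17 inhibitors of cyclin-dependent kinases and antiproliferative genes, 15 were tested and 11 had positive differences, with a median of 0.26. Txnip, an inhibitor of thioredoxin and glucose uptake, read 853, 1100 and 811 in E2A-/- and 561, 592 and 640 in Lyl1-/- (0.61, SE 0.135, adjusted p = 0.380). Btg2, an antiproliferative factor, read 154, 207 and 189 against 130, 124 and 123 (0.54, SE 0.126, adjusted p = 0.427). Btg1, its relative, differed by 0.49 and Cdkn2c, for p18, by 0.35, again without overlap. Cdkn1a, for p21, had the opposite sign, at 145, 150 and 151 against 272, 254 and 192 (-0.67, SE 0.140, adjusted p = 0.342), and WT at 115 to 119 lay below both genotypes. The median of the list was 0.14 without Lyl1-/- 1 and 0.17 without E2A-/- 2.

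No replication or division gene passed the test. Of 24 tested S phase genes, 8 had positive and 16 negative differences, with a median of -0.05. Mcm7, a subunit of the replicative helicase, read 4824, 5121 and 4386 in E2A-/- and 2504, 2265 and 3749 in Lyl1-/- (0.78, SE 0.188, adjusted p = 0.427). WT read 5020 to 5430, above every Lyl1-/- array. Of 23 tested G2 and M phase genes 20 had negative differences, with a median of -0.14. Ccna2, for cyclin A2, read 372, 387 and 345 against 445, 459 and 523 (-0.37, SE 0.104, adjusted p = 0.465). Ube2c, Tpx2 and Cenpa, all of mitosis, differed by -0.31, -0.28 and -0.30. Immediate early genes, which respond to handling of cells, had 13 of 18 tested and a median of -0.01, against -0.01 over all tested genes.

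Interferon response genes had mostly negative differences, none of which passed the test. Of 30 listed genes 24 were tested, 18 with negative and 6 with positive differences and a median of -0.19. For 9 of the 24 (37.5%) all E2A-/- arrays lay below all Lyl1-/- arrays, against 6.51% of all tested genes, and for none did they all lie above. Oas1a, an oligoadenylate synthetase that senses viral RNA, read 562, 515 and 546 in E2A-/- and 976, 883 and 813 in Lyl1-/- (-0.72, SE 0.103, adjusted p = 0.103). WT read 786 to 941, above every E2A-/- array, and with all 9 arrays in 1 fit the adjusted p of Oas1a was 0.0312, but 0.0731 with WT 1 and WT 3 averaged. Ifi35 read 1667, 1689 and 1372 against 2204, 1963 and 1931 (-0.37, SE 0.117) and Rtp4 395, 351 and 343 against 408, 558 and 511 (-0.43, SE 0.136). Xaf1, at -0.30, Usp18, a brake on interferon signalling, at -0.36, and Oas2, at -0.34, had the same order of the knockouts. WT lay above every E2A-/- array for Usp18 and Oas2, but for Xaf1 it read 147 to 150, below every knockout array. The summed level of the list was 6526 to 6996 in E2A-/- and 8062 to 8321 in Lyl1-/-, without overlap. The median stayed between -0.24 and -0.14 in the other settings.

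The neighbourhoods of the deleted genes were read in RefSeq gene order, counting only genes with a probe set of their own. Within 100 genes on either side of Lyl1, 146 were tested, and 16 were higher and 10 lower in E2A-/- at an unadjusted p under 0.05. That is 17.8% of them, against 8.19% of all tested genes. Groups did not overlap for 19.2%, against 12.3%. Tpm4 was the neighbour that passed. Lpcat2, a phospholipid acyltransferase 65 genes away, differed by 0.77 (adjusted p = 0.0866), and Mt2, a metallothionein 82 genes away, by 0.66 (adjusted p = 0.0999). Gadd45gip1, the third counted gene from Lyl1, differed by 0.68, and these neighbours were named after their values were seen. The signs were mixed, and D8Ertd738e on the other side differed by -0.68. Around Tcf3, on chromosome 10, 161 neighbours were tested and 6.83% had an unadjusted p under 0.05, 2 higher and 9 lower. None of them passed. Whether sequence linked to the targeted allele has a part in the values of Tpm4, Klf1 or other neighbours was not tested.

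**Figure D4:**
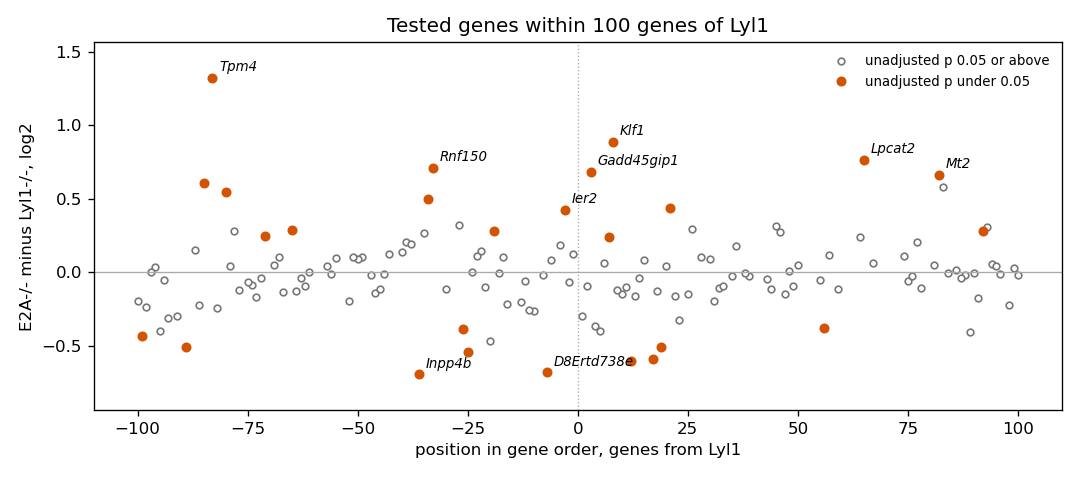
Log2 difference, E2A-/- minus Lyl1-/-, of the 146 tested genes within 100 genes of Lyl1, by their position in gene order. Positions count only genes with a probe set of their own, and Lyl1 itself is not plotted. Filled points have an unadjusted p under 0.05. Tpm4, at 1.32, is the one neighbour past the adjusted threshold, and points of both signs lie across the region.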

How the data were processed

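RNA of CD135+ Lineage-CD117+SCA-1+ cells was amplified and biotin-labelled during in vitro transcription, as the labels' protocols state. Deposited values were linear intensities per probe set, and per the submitters' processing notes RMA and oligo were used, with versions not given in the sources used here. Lowest values of 42.1 to 45.2 set the background. Log2 of these intensities was taken with no constant added; the planned test had assumed log2 values.

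Of 45101 probe sets, 64 controls were dropped, 34945 had 1 gene in the platform annotation, 932 several and 9160 none. Each of 18193 genes was represented by the probe set of highest mean log2 over all 9 arrays. The filter kept the 11624 genes above the array median on at least 3 of the 6 knockout arrays. limma 3.58.1 in R 4.3.3 (lmFit, eBayes) compared the genotypes, and p-values were adjusted by Benjamini-Hochberg over all of them. With 6 arrays, their number limits the precision, and p-values measure the spread between these samples. The fit was tested on simulated data with 50 changed genes of each size. It recovered 30% of changes of 0.5 log2, 70% of 1 and 98% of 2, so smaller differences are often missed. Of 154 calls, 5 were false. Noise was drawn independently for each gene, so shifts shared by many genes on an array were not simulated.

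The naming rule took Tcf3, Lyl1, at most 15 significant genes each way with non-overlapping groups and up to 6 list members of smallest p. It also took tested members of the lymphoid, B lineage, E protein, sort and sex lists. Not all genes under this rule are printed. Others are said to be named after their values were seen. The comparison and lists were chosen with earlier results of these data known, so lists are described by counts and medians with no test. Alternatives varied normalization, filter, probe set rule, arrays, covariates, variance model and single arrays. Promoters and gene order are RefSeq's on GRCm38.p6, in which 34741 probe sets matched by gene ID. Gene order counts only genes with a probe set of their own.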

Additional observations from a re-analysis of the deposited data

How the results depend on the processing

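Lyl1 passed in 24 of 24 other settings and Gm4047 in 23 of 23. Stx3 passed in 18 of 24, Anxa1 and Auts2 in 15 of 24, Sema3d in 15 of 23, Hoxb5os and Pde2a in 13 of 24, Tpm4 in 13 of 23, Sdc1 in 12 of 24 and Vpreb1 in 10 of 23. None of the 11 changed sign. The count of 11 became 6 with a gene's probe sets averaged, 23 with all 9 arrays in 1 fit (14 with WT 1 and WT 3 averaged), 3 with sex from Xist as a covariate, 3 with the granulocyte level as a covariate and 3 with E2A-/- 1 alone against Lyl1-/-. Leaving out single arrays gave 2 to 16. With neighbours of Lyl1 and Tcf3 left out, a setting chosen after seeing the data, it was 10. With E2A-/- 1 alone, that array is assumed to vary like the Lyl1-/- arrays.

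The genotypes share replicate numbers, and with the replicate block 3 genes passed (Gm4047, Lyl1 and Stx3). Deviations of same-numbered arrays correlated at 0.0769, 0.0711 and 0.174. Among differently numbered arrays, E2A-/- 1 with Lyl1-/- 2 reached 0.158, and the rest were negative, from -0.223 to -0.0057. Deviations were taken from the mean of each genotype, so positive correlations must be balanced by negative ones. The signs therefore cannot show whether the arrays are paired. Whether same-numbered arrays were handled together is not given by the labels and was not tested.

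The granulocyte median of 1.04 was -0.30 with E2A-/- 1 alone. It was -0.006 with the granulocyte level as a covariate. That level is the mean of the same genes, so this fall was fixed in advance and shows nothing about them. The median of the CDK inhibitor list, 0.26, was 0.11 with the mean of probe sets, 0.10 with every probe set on its own, 0.14 with the actin ratio as a covariate and 0.14 to 0.27 without single arrays. The interferon median, -0.19, was -0.16 after quantile normalization, -0.16 with the mean of probe sets, -0.16 with every probe set on its own, -0.14 with the granulocyte covariate, -0.14 with E2A-/- 1 alone and -0.24 to -0.15 without single arrays. The B lineage median ran from -0.31 to 0.0232 without single arrays. Causes were not tested. Over all list medians and other settings, these lists included, 581 values moved by less than the spread between replicates and 43 moved further. Genes near the array median, such as Vpreb1, Il7r and Robo4, are limited by their signal over background.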
